A study of Mus musculus with 4 samples.

Results

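The genes described here are 42 genes of mitosis: the kinases and cyclins of the G2/M transition and the parts of the kinetochore, the spindle, the anaphase machinery and the cytokinetic ring. They were chosen by name, though with earlier results of these data known. All 42 were found in both gene tables deposited by the authors, which name 23352 entries between them. RNA was sequenced from the Achilles tendon of male mice homozygous for Scx-EGFP on a C57BL/6 background, a reporter of the tendon transcription factor Scx that every group carried. In neonates of 7 days and adults of 6 months, the right tendon was transected (tenotomy) and the left hindlimb had a sham operation, and RNA was taken 5 days later. After tenotomy the distal stump was collected without the connective tissue around it. Each of the 4 groups was 1 pool and 1 library, of 11 mice in either neonatal group, 5 in the adult sham group and 9 in the adult tenotomy group. The spread between animals was therefore not measured, no test was made, and every difference below is one between 2 libraries.

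Dividing cells make most of these transcripts in G2 and M phase and shut them down in G0 and G1, so in a tissue they follow the share of cycling cells. Tendon cells divide during growth and become largely quiescent in the adult, and they and incoming cells divide again after injury. In bulk RNA, fewer cells of a type and less RNA per cell cannot be told apart, and the cells that carried these transcripts are not identified. In quiescent cells the DREAM complex holds the genes off through its MuvB core, whose subunit Lin54 binds the short element TTTGAA or TTCGAA, named the cell cycle genes homology region. In cycling cells MuvB works with the products of Mybl2 and Foxm1, and the factor NF-Y binds CCAAT boxes in the same promoters.

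Promoter windows in RefSeq (build GRCm38.p6, from 250 bases before to 50 bases after the annotated start, the first window listed for each gene) were matched for 35 of the 42 genes. The other genes were Ccna2, Cdc25c, Foxm1, Aurkb, Incenp, Tpx2 and Kif20a. Searched on both strands, CCAAT was held by 26 of the 35 windows (74.3%) and by 37.9% of all 27025 windows. TTTGAA or TTCGAA, the latter its own reverse complement, was held by 26 of 35 (74.3%) and by 19.4% of all windows. Both kinds of element stood together in 23 of 35 windows (65.7%) and in 7.7% of all windows. Matches of letters are a description and do not show binding. The RefSeq start is not always that of the gene in the tables: it lay within 100 bases of the start of the deposited locus for 31 of the 35 windows, and for Pttg1, Nusap1 and Kif2c it lay 267, 8766 and 3852 bases inside the locus, and for Mad2l1 247 bases before it. Among those 31, a limit chosen after seeing the data and not applied to the windows of all genes, 26 held CCAAT, 25 held TTTGAA or TTCGAA and 23 held both. In 22 of the 35 windows the first 25 bases after the start stood in a GENCODE transcript of the gene, so positions counted from the start are approximate. The 6 windows below are those of the genes with both elements and the highest adult tenotomy-to-sham ratio, so that the shared elements can be read beside the values of these genes. For 4 of the 6, all but Ccnb2 and Hmmr, the first 25 bases after the start stood in a GENCODE transcript.

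The printed stretch runs from 150 bases before to 30 bases after the start, 5′ to 3′ in the direction of transcription, with the elements on either strand in capitals (a CCAAT box on the opposite strand reads ATTGG). In GRCm38.p6 the stretches are Top2a chr11:99024160-99024339 (minus strand), Hmmr chr11:40733408-40733587 (minus strand), Cdk1 chr10:69352883-69353062 (minus strand), Ccnb2 chr9:70421525-70421704 (minus strand), Ube2c chr2:164769779-164769958 (plus strand) and Prc1 chr7:80294301-80294480 (plus strand).
Top2a: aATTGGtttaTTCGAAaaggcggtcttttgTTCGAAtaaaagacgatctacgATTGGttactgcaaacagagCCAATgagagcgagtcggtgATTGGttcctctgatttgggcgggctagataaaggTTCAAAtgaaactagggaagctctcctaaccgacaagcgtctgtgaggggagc
Hmmr: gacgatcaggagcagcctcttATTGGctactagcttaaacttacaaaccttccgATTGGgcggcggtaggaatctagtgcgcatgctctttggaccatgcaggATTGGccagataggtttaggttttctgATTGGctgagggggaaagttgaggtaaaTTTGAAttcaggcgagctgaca
Cdk1: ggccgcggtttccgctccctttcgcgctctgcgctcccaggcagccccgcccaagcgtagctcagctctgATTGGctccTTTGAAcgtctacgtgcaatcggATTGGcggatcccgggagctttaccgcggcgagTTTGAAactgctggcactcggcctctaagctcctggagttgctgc
Ccnb2: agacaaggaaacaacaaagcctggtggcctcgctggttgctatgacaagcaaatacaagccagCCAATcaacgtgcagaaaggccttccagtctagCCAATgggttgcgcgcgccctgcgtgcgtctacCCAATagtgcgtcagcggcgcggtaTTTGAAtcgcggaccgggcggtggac
Ube2c: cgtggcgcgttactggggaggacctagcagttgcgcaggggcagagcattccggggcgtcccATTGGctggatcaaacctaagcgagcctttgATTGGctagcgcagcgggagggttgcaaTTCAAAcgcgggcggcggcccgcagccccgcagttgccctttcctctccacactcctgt
Prc1: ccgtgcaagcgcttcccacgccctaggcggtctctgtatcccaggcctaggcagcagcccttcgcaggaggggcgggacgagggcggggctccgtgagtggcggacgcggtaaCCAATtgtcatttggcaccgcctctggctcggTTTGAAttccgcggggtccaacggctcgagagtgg

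Counted along the printed strand, in Cdk1 a CCAAT box of either direction began at position -48 and a TTTGAA element at -15 from the start, and in Ube2c they began at -57 and -29. In Prc1 they began at -37 and -5, and in Hmmr at -20 and 9. Each of these windows thus has a CCAAT box ahead of a TTTGAA near the start. In Top2a 4 CCAAT boxes and 3 homology elements fell within the printed stretch. Of the 23 genes with both elements, 15 were at least 2-fold higher after tenotomy in adults (median log2 ratio 1.34) and 1 in neonates (0.72), where 8.45% and 4.46% of all entries above 0 in the tables were. Of all 42 genes, with or without the elements, 27 were in adults and 2 in neonates. In adults 5 of the 6 genes with 1 kind of element (median log2 ratio 1.21) and 1 of the 6 with neither (0.68) were. These groups are small, and some of their windows lie far from the gene's start. Whether the elements go with the ratios was not tested.

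Levels are in FPKM as deposited, that is, fragments counted on a gene per kilobase of its transcript and relative to the size of the library. The tables of the 2 ages may have been scaled separately. A log2 ratio is taken after adding 1 FPKM to both values, tenotomy over sham, which shrinks the differences of genes near or under 1 FPKM. Folds are on the same scale unless called FPKM ratios. Low values came in steps of whole fragments, which implied about 2680000 and 3260000 fragments in the 7-day sham and tenotomy libraries and 1800000 and 2430000 at 6 months. For the median gene of the 42 this comes to about 26.5, 58.5, 7.5 and 25.5 fragments, so the adult sham values rest on the fewest. Intervals given with FPKM ratios are exact binomial 95% intervals (Clopper-Pearson) from these approximate fragment numbers, and they cover counting error only. The tendon genes Tnmd (301, 279, 36.9 and 47.0 FPKM) and Scx (24.8, 23.3, 15.9 and 5.70 FPKM) marked all 4 libraries as tendon, while mature muscle genes took 6.71%, 0.0661%, 15.7% and 6.11% of the FPKM of ordinary genes.

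Mitosis genes were lowest in the adult sham tendon and highest in the neonatal tenotomy stump. The 42 genes summed to 229 FPKM in the 7-day sham, 359 in the 7-day tenotomy, 95.1 in the 6-month sham and 249 in the 6-month tenotomy library. Their median level was 4.37, 7.78, 1.48 and 5.28 FPKM. The adult sham library was the lowest of the 4 for 40 of 42 genes, and the 7-day tenotomy library was the highest for 37. In 22 genes the order was 7-day tenotomy, 6-month tenotomy, 7-day sham, 6-month sham, and in 15 the middle pair was exchanged. The exceptions to the adult sham being lowest were Aurka, lowest in the 7-day sham, and Pttg1, lowest in the 7-day tenotomy library. Every gene was above 0 in every library, and 34 of 42 reached 1 FPKM in the adult sham.

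**Figure D1:**
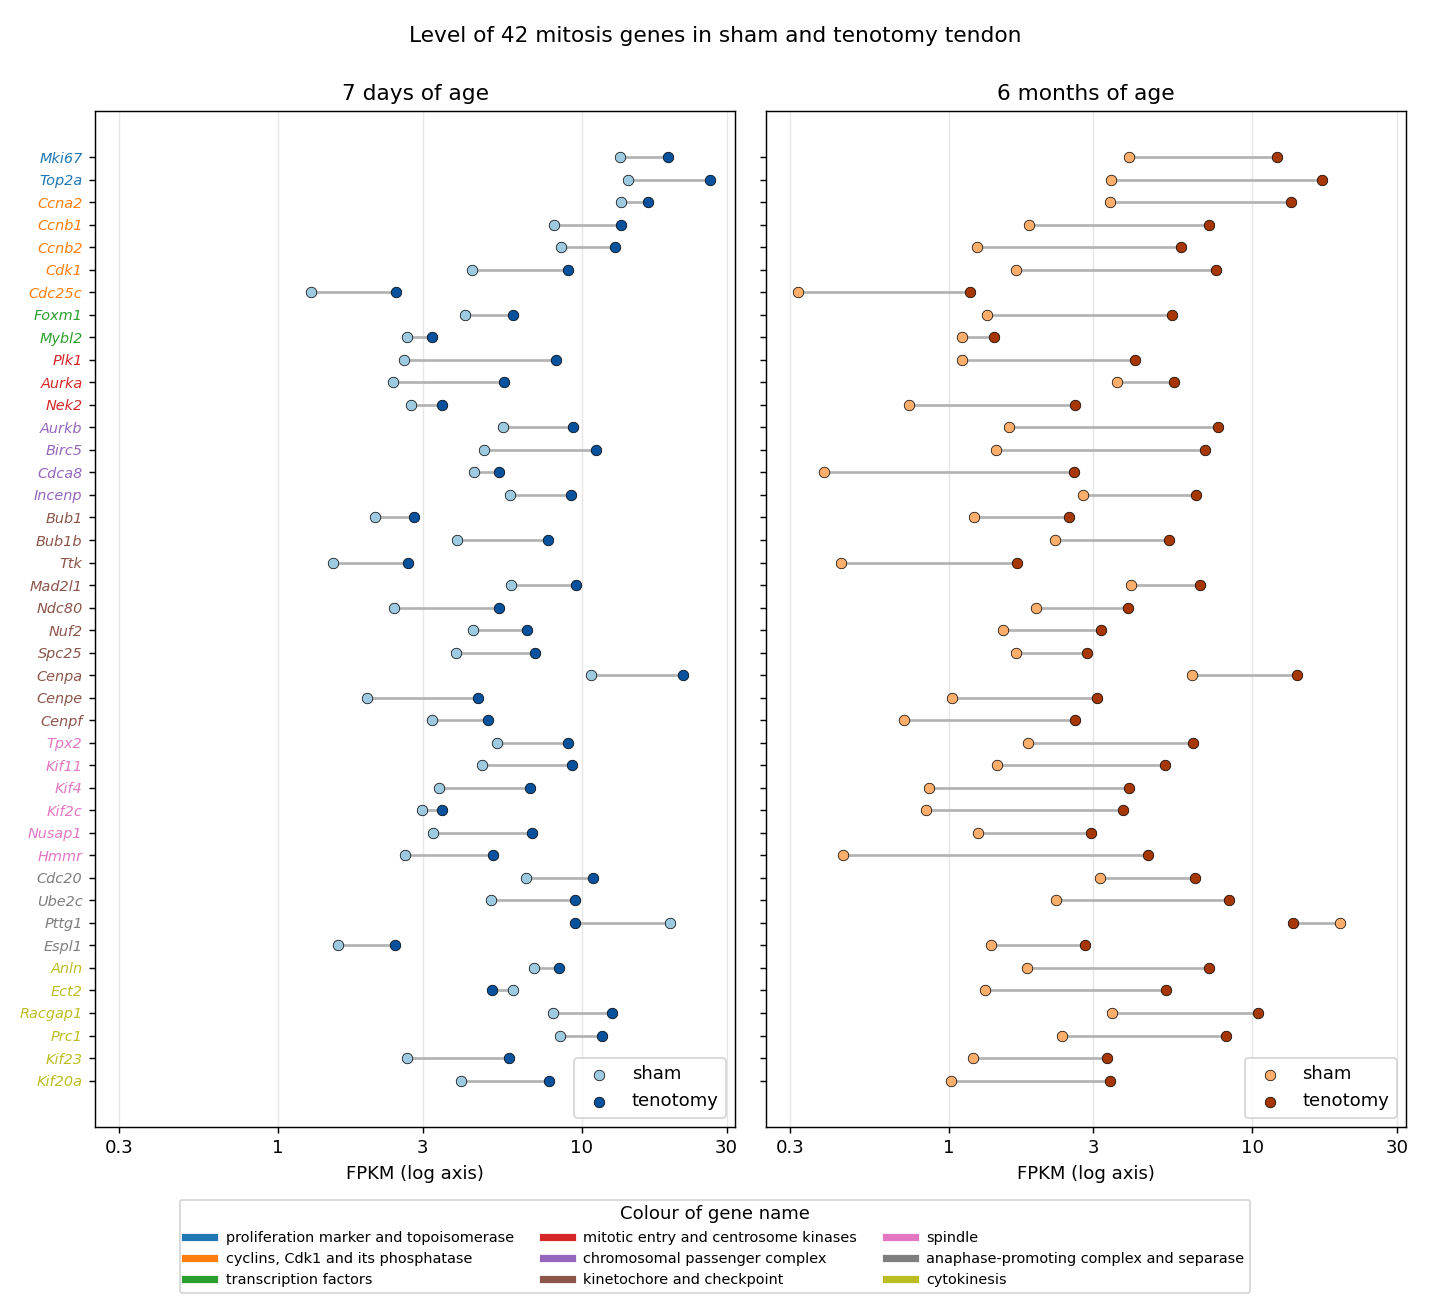
FPKM (log axis) of each of the 42 genes in the sham (light) and tenotomy (dark) library at 7 days (left) and 6 months (right), 1 pool per point, gene names coloured by role. Tenotomy lies to the right of sham for 40 genes at 7 days and 41 at 6 months, with longer steps in adults, where the sham points sit lower.

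After tenotomy in adults, 27 of 42 mitosis genes were at least 2-fold higher and none 2-fold lower. Their median log2 ratio was 1.20, where that of all entries was 0.01, and 41 of 42 were above sham by some amount, where 50.4% of all entries were. Among all entries above 0 FPKM, 8.45% were at least 2-fold higher at that age and 9.12% lower, and among entries that reached 5 FPKM in a library of that age 9.62% and 11.9%. In neonates 2 of 42 were at least 2-fold higher, Plk1 and Birc5, and none was 2-fold lower. That share is close to the background of 4.46% (5.55% among entries that reached 5 FPKM), and 8.41% of entries (10.3%) were 2-fold lower. The neonatal genes nevertheless lay to one side: 40 of 42 were above sham by some amount, where 48.7% of all entries were, and their median log2 ratio was 0.64 where that of all entries was -0.02. Summed over the 42 genes, tenotomy held 1.59 times the fragments of sham per depth at 7 days (interval 1.51 to 1.69) and 3.15 times at 6 months (2.84 to 3.51). Long transcripts weigh more in fragments than in FPKM. By summed FPKM the ratios were 1.56 and 2.62, the latter below the interval of the fragments. Pttg1, which was lower after tenotomy, held 19.5 of the 95.1 FPKM summed in the adult sham. Without Pttg1 the sums after sham and tenotomy were 210 and 349 FPKM at 7 days and 75.6 and 235 FPKM at 6 months. At 1.5-fold, 24 of 42 genes were higher at 7 days and 38 at 6 months, against 12.8% and 19.3% of all entries. The 2-fold count at 7 days depends on the scale: it was 9 with a pseudocount of 0.1 FPKM and 11 with FPKM rescaled to a common sum, settings under which 6.74% and 8.04% of entries that reached 5 FPKM were 2-fold higher. At 6 months it was 2 with a pseudocount of 5 FPKM, which is above the level of most of these genes in the sham library, and 4.67% of entries that reached 5 FPKM were then 2-fold higher.

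**Figure D2:**
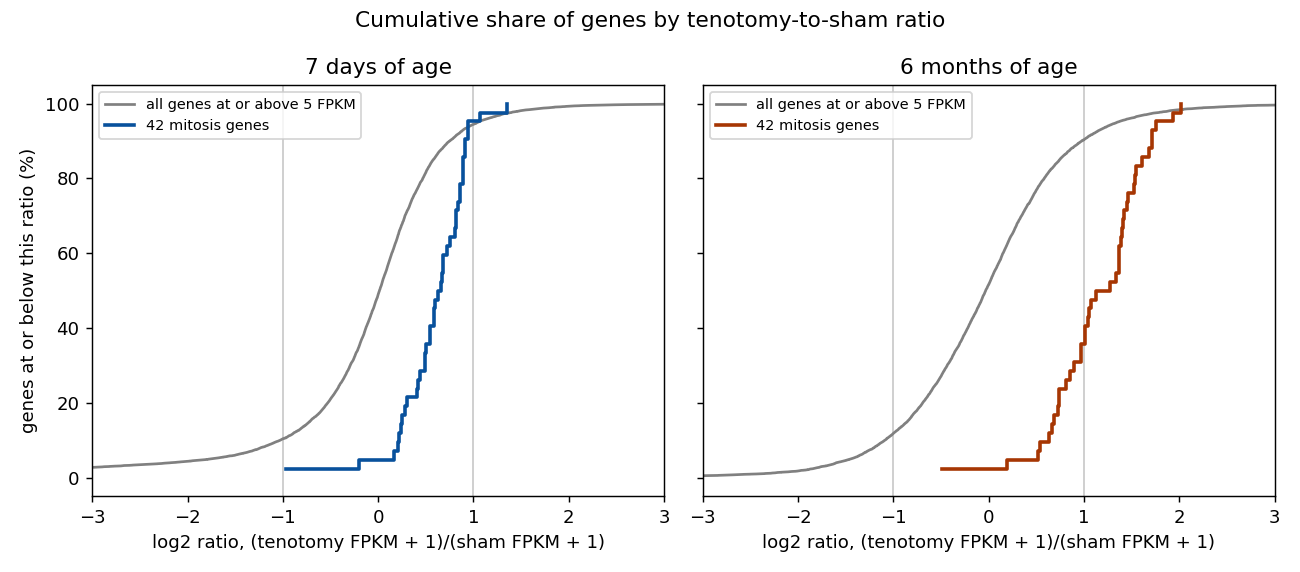
Cumulative share (%) of genes by log2((tenotomy FPKM + 1)/(sham FPKM + 1)) at each age, for the 42 mitosis genes (coloured steps) and all genes that reached 5 FPKM in a library of that age (grey); vertical lines mark 2-fold. The coloured steps lie to the right of grey at both ages, with medians of 0.64 and 1.20.

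Mki67, the proliferation antigen that coats mitotic chromosomes, stood at 13.4 FPKM in the 7-day sham, 19.2 in the 7-day tenotomy, 3.94 in the 6-month sham and 12.1 in the 6-month tenotomy library. Its FPKM ratio was 1.43 at 7 days (1.26 to 1.64) and 3.07 at 6 months (2.36 to 4.04), and the 2 intervals do not overlap. Top2a, the topoisomerase that untangles replicated chromosomes, stood at 14.2, 26.5, 3.43 and 16.9 FPKM in the same order. It had the highest adult log2 ratio of the 42 (2.01, against 0.86 at 7 days) and the highest level of them in both tenotomy libraries. On the deposited scale, both genes were about as high in the adult stump as in the neonatal sham tendon. Such a comparison crosses the 2 tables and depends on the scaling.

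Among the cyclins and the kinase they drive, 4 of 5 genes passed 2-fold in adults and none did in neonates. Ccna2, cyclin A2 of S and G2 phase, stood at 13.4 and 16.6 FPKM at 7 days and at 3.40 and 13.4 FPKM at 6 months. Ccnb1 (8.09, 13.5, 1.84 and 7.19 FPKM) and Ccnb2 (8.57, 12.9, 1.24 and 5.82 FPKM), the B-type cyclins that take the cell into mitosis, followed the same order of libraries. Cdk1, the kinase that these cyclins activate, stood at 4.35, 9.05, 1.67 and 7.58 FPKM, with log2 ratios of 0.91 and 1.68. Cdc25c, the phosphatase that switches Cdk1 on, was the lowest of the 42 in 3 of the 4 libraries (1.28, 2.44, 0.318 and 1.18 FPKM). With about 1 fragment in the adult sham, its adult FPKM ratio of 3.71 had an interval of 0.414 to 175.

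The transcription factors had unlike log2 ratios in adults, with overlapping counting intervals. Foxm1, which drives G2/M genes, stood at 4.13, 5.93, 1.33 and 5.44 FPKM, log2 ratios of 0.43 and 1.46. Mybl2, which encodes B-Myb and is itself switched on at the G1/S transition, stood at 2.67, 3.22, 1.11 and 1.41 FPKM. Its log2 ratios of 0.20 and 0.19 were nearly equal, and it had the smallest adult ratio among the genes that were higher after tenotomy. The adult FPKM ratios were 4.08 for Foxm1 (2.07 to 8.39) and 1.27 for Mybl2 (0.461 to 3.81). Mybl2 rested on about 7 and 12 fragments in the adult sham and tenotomy libraries. Of the 50-base stretches of Mybl2, 23.8% also occur in annotated transcripts of other genes.

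Of the 3 kinases of mitotic entry and the centrosome, Plk1 stood apart at 7 days. Plk1, polo-like kinase, stood at 2.60, 8.20, 1.11 and 4.11 FPKM, and its log2 ratios of 1.35 and 1.28 made it the highest of the 42 in neonates. Its 7-day FPKM ratio was 3.15 (1.70 to 6.07). Of its 50-base stretches, 10.9% also occur in annotated transcripts of other genes such as the pseudogene Plk-ps1, so part of its reads may belong there. Aurka, the centrosomal Aurora kinase, stood at 2.40, 5.53, 3.58 and 5.54 FPKM. It was the gene with the largest shift toward neonates (log2 ratio 0.94 against 0.52), and its adult sham level was above its neonatal sham level. Its FPKM ratios of 2.31 at 7 days (1.13 to 5.11) and 1.55 at 6 months (0.725 to 3.52) have overlapping intervals. The neonatal sham stood at 0.67 times the adult sham (0.264 to 1.71). With about 11 fragments in each, that difference was not detectable at this depth. Nek2, which splits the centrosomes, stood at 2.74, 3.46, 0.741 and 2.61 FPKM.

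All 4 genes of the chromosomal passenger complex, which corrects chromosome attachment and guides cytokinesis, passed 2-fold in adults, Incenp narrowly (2.01-fold). Aurkb, its kinase, stood at 5.50, 9.34, 1.58 and 7.72 FPKM (log2 ratios 0.67 and 1.76). Birc5 (survivin) stood at 4.78, 11.1, 1.43 and 6.96 FPKM (1.07 and 1.71), with a 7-day FPKM ratio of 2.33 and an interval of 1.04 to 5.14 from about 10 and 27 fragments. The remaining subunits, Cdca8 (borealin; 4.42, 5.32, 0.389 and 2.59 FPKM) and Incenp (5.81, 9.19, 2.76 and 6.55 FPKM), had smaller ratios in neonates than in adults. Cdca8 rested on about 1 fragment in the adult sham and Birc5 on about 2. Adult FPKM ratios were 4.89 for Aurkb (1.77 to 15.1) and 4.87 for Birc5 (1.09 to 43.9). Those of Cdca8 and Incenp were 6.67 (0.924 to 292) and 2.37 (1.30 to 4.56). Each of these adult intervals reaches below 2, and for Cdca8 the adult difference was not detectable at this depth.

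The kinetochore and checkpoint genes had the smallest adult differences of the larger role groups. Of 10, 3 passed 2-fold at 6 months (Cenpa, Cenpe and Cenpf) and none at 7 days, and the medians were 0.81 and 0.67. With a pseudocount of 0.1 FPKM, Nuf2, Bub1b and Ttk also passed 2-fold in adults, and Ndc80, Cenpa and Cenpe in neonates. Cenpa, the histone H3 variant that marks the centromere, stood at 10.7, 21.6, 6.33 and 14.1 FPKM and had log2 ratios of 0.95 and 1.04. Besides Pttg1, Cenpa was the member above 5 FPKM in the adult sham. Cenpe, a kinetochore motor (1.97, 4.57, 1.02 and 3.08 FPKM), and Cenpf (3.23, 4.92, 0.713 and 2.60 FPKM) were lower in level. The microtubule-binding Ndc80 complex was represented by Ndc80 (2.42, 5.32, 1.94 and 3.90 FPKM), Nuf2 (4.39, 6.63, 1.51 and 3.17 FPKM) and Spc25 (3.87, 7.01, 1.67 and 2.86 FPKM). Ndc80 and Spc25 had larger ratios in neonates than in adults (0.89 against 0.74, and 0.72 against 0.53). For both genes the counting intervals of the FPKM ratios overlap between the ages.

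The checkpoint genes, whose products delay anaphase until chromosomes are attached, stayed under 2-fold at both ages once 1 FPKM was added. Bub1b (BubR1) came closest on that scale, at 3.88, 7.73, 2.24 and 5.34 FPKM and log2 ratios of 0.84 and 0.97. Its adult FPKM ratio was 2.38 (1.28 to 4.70). With a pseudocount of 0.1 FPKM, Bub1b (log2 ratio 1.22) and Ttk (1.71) passed 2-fold in adults, while Bub1 (0.98) and Mad2l1 (0.74) did not. Mad2l1 (5.84, 9.56, 3.998 and 6.74 FPKM) had a log2 ratio of 0.63 at either age. The kinases Bub1 (2.08, 2.80, 1.21 and 2.49 FPKM) and Ttk (1.52, 2.67, 0.442 and 1.67 FPKM) were low throughout. Their adult FPKM ratios of 2.06 (0.809 to 5.66) and 3.79 (0.889 to 37.8) reach past 1 in both directions, so a difference was not detectable at this depth.

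Of 6 spindle genes, 5 passed 2-fold in adults (median log2 ratio 1.38) and none did in neonates (0.79). Hmmr, a spindle protein first known as a hyaluronan receptor, stood at 2.62, 5.09, 0.449 and 4.54 FPKM. Its adult FPKM ratio of 10.1 was the highest of the 42, with an interval of 3.23 to 51.1 because the adult sham held about 3 fragments. Tpx2, which activates Aurora A (5.27, 9.02, 1.82 and 6.38 FPKM), and Kif11, the motor that pushes the spindle poles apart (4.70, 9.31, 1.44 and 5.17 FPKM), kept the common order. Kif4 (3.40, 6.76, 0.862 and 3.92 FPKM) and the microtubule depolymerase gene Kif2c (2.98, 3.47, 0.844 and 3.75 FPKM) had neonatal log2 ratios of 0.82 and 0.17. Their 7-day FPKM ratios of 1.99 (1.37 to 2.86) and 1.17 (0.650 to 2.16) have overlapping intervals. Of the 50-base stretches of Kif4, 16.2% also occur in annotated transcripts of other genes. Nusap1 (3.24, 6.84, 1.25 and 2.94 FPKM) had log2 ratios of 0.89 and 0.81.

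The genes of the anaphase-promoting complex and its targets included the one that went against the rest. Cdc20, the activator of the complex (6.56, 10.9, 3.15 and 6.49 FPKM), Ube2c, its ubiquitin-conjugating enzyme (5.02, 9.49, 2.26 and 8.40 FPKM), and Espl1, the separase that cleaves cohesin (1.57, 2.42, 1.38 and 2.82 FPKM), were higher after tenotomy at both ages. Ube2c was the one of these past 2-fold, in adults (log2 ratio 1.53). Pttg1, securin, which holds separase in check, stood at 19.5 FPKM in both sham libraries, at 9.51 FPKM in the 7-day tenotomy and at 13.6 in the 6-month tenotomy library. It was the highest of the 42 in both sham libraries and the one lower after tenotomy at both ages (log2 ratios -0.97 and -0.49). Its FPKM ratio was 0.486 at 7 days (0.234 to 0.929) and 0.698 at 6 months (0.330 to 1.47), so the adult difference was not detectable at this depth. None of its 50-base stretches occurred in annotated transcripts of other genes. Mature muscle markers were also higher in both sham libraries; their part in the level of Pttg1 was not tested.

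Of 6 cytokinesis genes, 5 passed 2-fold in adults (median log2 ratio 1.39) and none in neonates (0.51). Anln, the anillin of the contractile ring (6.95, 8.42, 1.81 and 7.18 FPKM), Racgap1 (8.05, 12.6, 3.46 and 10.5 FPKM) and Prc1, which bundles the midzone (8.49, 11.7, 2.37 and 8.20 FPKM), had adult log2 ratios of 1.54, 1.37 and 1.45. Kif23, the partner of Racgap1 in the centralspindlin complex, stood at 2.66, 5.77, 1.21 and 3.32 FPKM. Kif20a, a midzone motor, stood at 3.99, 7.82, 1.02 and 3.39 FPKM. Ect2, the exchange factor that activates RhoA at the cleavage furrow, stood at 5.95, 5.05, 1.32 and 5.22 FPKM. It was slightly lower after tenotomy in neonates (FPKM ratio 0.85, 0.589 to 1.22) and higher in adults (3.95, 1.96 to 9.34), and these intervals do not overlap.

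Set side by side, the adult log2 ratio was the larger for 36 of 42 genes. Subtracting the adult from the neonatal log2 ratio gave a median of -0.53, where that of all entries was -0.05 and 53.6% of them were below 0. It was -1 or below for 11 of 42 genes, against 9.04% of all entries, and 1 or above for none, against 5.79%. The 11 included Ect2 (-1.62), Ccna2 (-1.43), Anln (-1.30), Kif2c (-1.20), Hmmr (-1.18) and Top2a (-1.16). On this scale the genes with a larger neonatal ratio were Aurka (0.43), Spc25 (0.19), Ndc80 (0.15), Plk1 (0.08), Nusap1 (0.08) and Mybl2 (0.01). Of these, Plk1 (3.71 against 3.15), Nusap1 (2.35 against 2.11) and Mybl2 (1.27 against 1.21) had the larger FPKM ratio in adults. Their log2 ratios with a pseudocount of 0.1 FPKM were larger in adults too. By role, the gap was widest for Mki67 and Top2a (median -1.04) and the cytokinesis genes (-0.90) and narrowest for the kinetochore and checkpoint genes (-0.12) and the entry kinases (0.08). The chromosomal passenger genes (-0.86) and the cyclin group (-0.86) lay close to the cytokinesis genes. Each median rests on 2 to 10 genes, and the order of the roles was not tested. A pseudocount of 5 FPKM narrowed the median gap to -0.16, and one of 0.1 FPKM widened it to -0.93.

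**Figure D3:**
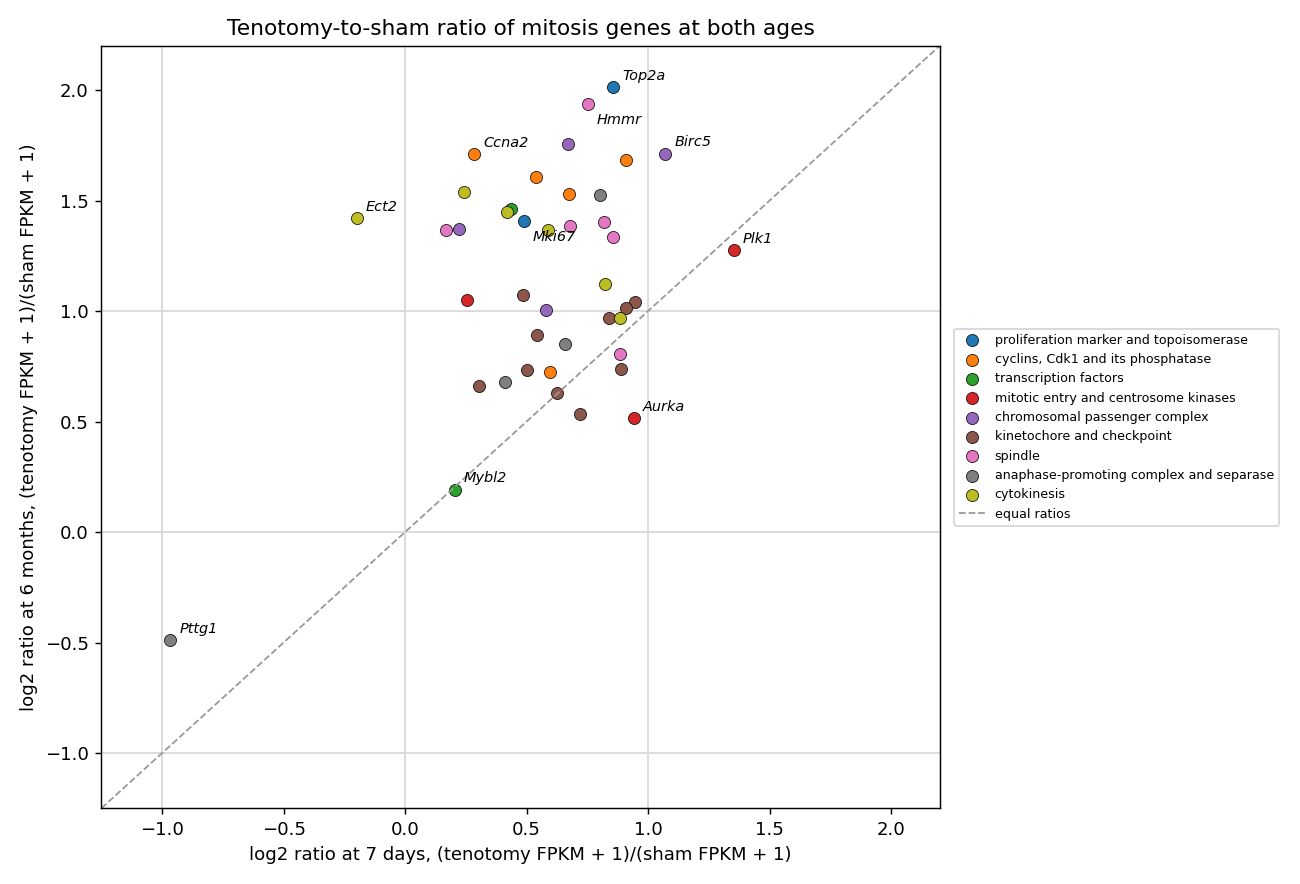
Log2((tenotomy FPKM + 1)/(sham FPKM + 1)) of each of the 42 genes at 7 days (horizontal axis) and 6 months (vertical axis), coloured by role; the dashed line marks equal ratios and grey lines mark 0 and 2-fold. For 36 genes the point lies above the dashed line; Ect2 is to the left of 0 at 7 days and Pttg1 is below 0 on both axes.

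The next levels are set across the 2 tables. Summed over the 42 genes, the neonatal library held 2.92 times the fragments of the adult one per depth among sham libraries (2.63 to 3.25) and 1.48 times among tenotomy libraries (1.40 to 1.56). By summed FPKM these ratios were 2.41 and 1.44. In the 7-day sham, 23 of 42 genes were at least 2-fold above the 6-month sham and none was 2-fold below, with a median log2 ratio of 1.06. Of all entries 11.5% were 2-fold above and 5.57% below, with a median of 0.22, and 63.6% were above by some amount, as 41 of the 42 were. Ccnb2 (2.10), Cdca8 (1.97), Top2a (1.77) and Ccna2 (1.71) had the largest values. Between the tenotomy libraries, 3 of 42 genes were at least 2-fold above in neonates, namely Spc25, Ccnb2 and Kif20a, and none was 2-fold below, against 7.69% and 5.81% of all entries. The median was 0.46, and 37 of 42 were above by some amount, as 62.0% of all entries were. With FPKM rescaled to a common sum without muscle genes and small RNAs, 16 genes were 2-fold above between sham libraries (median 0.89) and none between tenotomy libraries (median 0.16, 28 above by some amount). Scaling moved the background too: of all called genes that reached 5 FPKM, 66.2% were higher in neonates between sham libraries as deposited, 80.4% at a common sum, 49.9% without muscle genes and small RNAs and 47.7% centred on the median. Between tenotomy libraries these shares were 60.4%, 80.7%, 29.9% and 39.0%. Set against the 7-day sham, the 6-month tenotomy library was within 2-fold for all 42 genes (median log2 0.16, 25 above and 17 below), where 7712 of 9368 entries that reached 5 FPKM were. On the deposited scale the adult stump held these transcripts at about the level of the neonatal sham tendon.

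Further genes of mitosis and replication were mostly higher after tenotomy at both ages. G1 cyclin and entry genes were mostly higher in adults (15 of 17 above sham by some amount) and mixed in neonates (8 above and 9 below). Of all entries above 0 FPKM, 50.4% and 48.7% were above sham by some amount. At least 2-fold higher were 8.45% of them in adults and 4.46% in neonates, and 9.12% and 8.41% were lower. The neonatal counts of higher genes below, at most 1 per list, are near or under that share. Of 70 further mitosis genes, 29 were at least 2-fold higher in adults (median 0.87) and 1 in neonates, Dlgap5 (2.43 and 6.39 FPKM; median 0.31), and none was 2-fold lower. Cks2, a Cdk1-binding subunit, was listed at 0 in the adult sham and at 14.05 FPKM after tenotomy. Fbxo5, an inhibitor of the anaphase-promoting complex (0.345 and 4.86 FPKM), Tacc3, a spindle protein (0.915 and 6.95 FPKM), and Ckap2 (0.925 and 5.31 FPKM) came next. Of 45 DNA replication genes, 12 were 2-fold higher in adults (median 0.74) and 1 in neonates, Chaf1b, a histone chaperone of the replication fork (1.95 and 7.28 FPKM; median 0.31). The largest adult ratios were those of Dbf4, which activates the replication kinase Cdc7 (0.990 and 6.60 FPKM), Tk1 (2.92 and 12.8 FPKM), Gins2 (1.98 and 9.29 FPKM) and Uhrf1 (1.49 and 7.53 FPKM).

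Of 17 G1 cyclin and entry genes, 6 were 2-fold higher in adults (median 0.42) and none in neonates (-0.04). Ccne1, cyclin E1 (0.316 and 4.21 FPKM), Skp2 (0.554 and 3.71 FPKM), Cdk6 (1.96 and 6.70 FPKM) and Cdk4 (20.3 and 48.7 FPKM) were the highest in adults. In neonates Cdk6 went from 4.76 FPKM after sham to 2.55 after tenotomy. The D-type cyclin gene Ccnd2 stood at 89.5, 56.4, 16.8 and 22.8 FPKM across the 4 libraries, within 2-fold at both ages. Of 21 CDK inhibitors and repressors, 3 were 2-fold higher and 1 lower in adults (median 0.24), and 1 was higher and 1 lower in neonates (0.00). Among all entries above 0 FPKM, 8.45% were higher and 9.12% lower in adults, and 4.46% and 8.41% in neonates. Ccng1, a p53 target, was lower at both ages (93.3 and 25.3 FPKM in neonates, 211 and 83.6 FPKM in adults). Cdkn2b, the inhibitor p15, was higher in neonates (0.310 and 5.85 FPKM), while Btg1 (10.7 and 27.6 FPKM), Rbl1 (1.78 and 4.68 FPKM) and Cdkn2a, at 1.79 FPKM after tenotomy and listed at 0 in the sham library, were higher in adults.

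**Figure D4:**
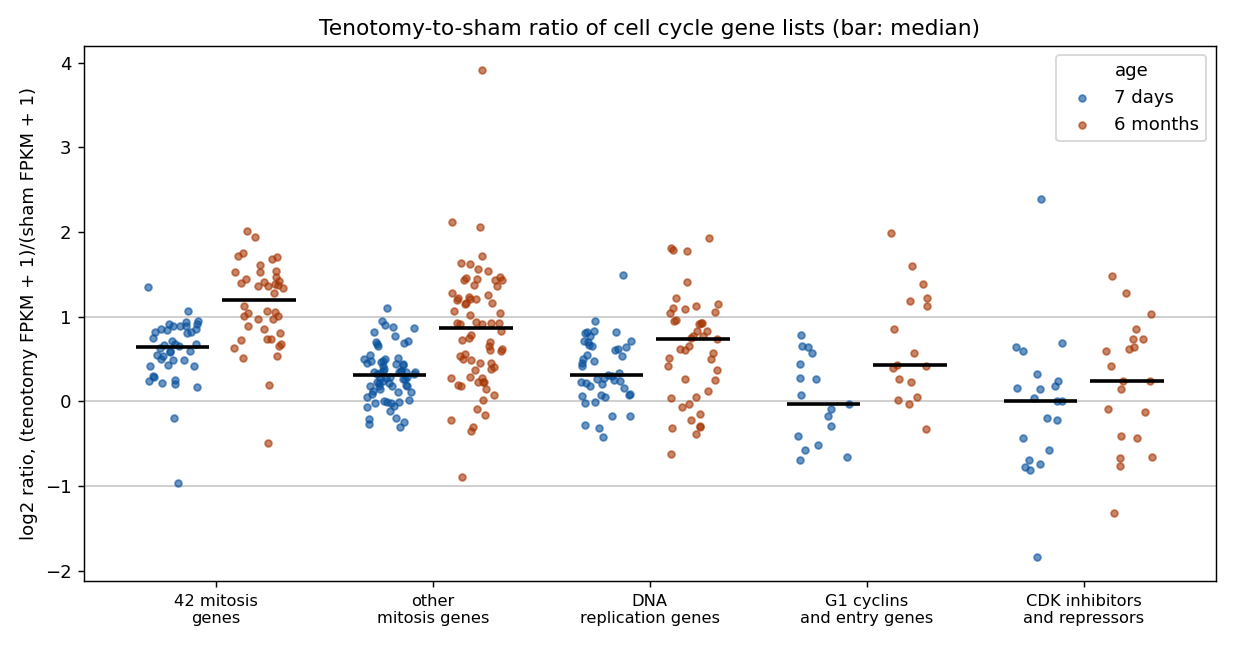
Log2((tenotomy FPKM + 1)/(sham FPKM + 1)) at 7 days and 6 months for the 42 mitosis genes and 4 other cell cycle lists, 1 point per gene, black bar at the median. The adult median is above the neonatal one in each list, 1.20 against 0.64 for the 42 genes and 0.24 against 0.00 for CDK inhibitors and repressors.

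Markers of several cell types moved beside the mitosis genes, and their part in these differences was not tested. The share of all entries above 0 FPKM that were 2-fold higher was 4.46% in neonates and 8.45% in adults. Of 7 macrophage markers, 4 were 2-fold higher in neonates (summed level 201 FPKM after sham and 397 after tenotomy) and 7 in adults (190 and 560 FPKM), none at 0. Of 6 activated fibroblast markers, 4 were higher at either age (823 and 3534 FPKM in neonates, 246 and 1176 in adults), none at 0. Of 6 endothelial markers, 2 were higher at either age (142 and 241 FPKM, 56.7 and 101 FPKM). Of 8 markers of neutrophils and their precursors, 6 were higher in neonates and 4 in adults (22.7 and 82.2 FPKM, 25.5 and 125 FPKM), and the precursor genes Elane and Mpo did not pass 1 FPKM in any library. Camp was at 0 in the 7-day sham and Ngp in the 6-month sham library. Of 6 T and B cell markers, none passed 1 FPKM, and Cd3d was at 0 in all 4 libraries.

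Other marker lists went down or both ways with tenotomy. The share of all entries above 0 FPKM that were 2-fold lower was 8.41% in neonates and 9.12% in adults, and 4.46% and 8.45% were higher. Of 10 mature muscle markers, all were 2-fold lower at both ages (17171 and 34.2 FPKM in neonates, 36590 and 10731 in adults). Of 4 muscle progenitor markers, 2 were lower in neonates, and Myog, a gene of differentiating myoblasts, was higher in adults (1.73 and 26.0 FPKM); Pax7, Myf5 and Myod1 were at 0 in the 7-day tenotomy library. Of 6 tenocyte markers, 1 was lower in neonates and 4 in adults (23714 and 13982 FPKM, 6277 and 5961 FPKM), and of 3 sheath markers 1 was higher and 1 lower at either age (264 and 152 FPKM, 608 and 232 FPKM). Of the 3 erythroid markers found, 2 were lower in neonates (29.5 and 13.4 FPKM) and none changed 2-fold in adults (3.74 and 3.10 FPKM). Of 4 cartilage markers, 2 were higher and 1 lower in neonates and 1 each in adults (151 and 196 FPKM, 115 and 55.0 FPKM), Matn1 being at 0 in 3 libraries. Of 4 skin epithelium markers, 2 were lower in neonates and 1 in adults (24.8 and 8.62 FPKM, 14.6 and 1.71 FPKM), and Lor was at 0 throughout.

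The authors' deposited tables called none of the 42 genes significant at either age, in comparisons of 1 pool with 1 pool. The authors' deposited table for 7 days tested 35 of them, with the lowest p-value at Plk1 (0.0931, q-value 0.998), and that for 6 months tested 23, with the lowest at Top2a (0.0052, q-value 0.652). In all, the authors' deposited tables called 90 genes at 7 days and 0 at 6 months; higher after tenotomy were 0.0183% and 0% of entries above 0 FPKM. Of the 42 genes, 8 share at least 10% of their 50-base stretches with annotated transcripts of other genes, with most of it in Ccnb1 (42.1%, with Ccnb1-ps among others), Kif20a (31.2%, with the overlapping Cdc23) and Prc1 (26.6%, with Rccd1 among others). Without those 8, 21 of 34 genes were 2-fold higher in adults and 1 in neonates, Birc5. A locus shared with other genes in the tables is carried by 6 genes, Ccna2, Foxm1, Cdc20, Nusap1, Anln and Kif20a, so their separate values are less certain.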

How the data were processed

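Each of the 4 tendon pools gave 1 library. Per the labels' protocols, the RNA had integrity values under 8, the input was 10 ng, ribosomal RNA was removed, the kit kept strand, and paired reads were 75 bases long. Per the submitters' processing notes, mm10, Cufflinks and TopHat were used; no version or annotation is given there. The authors deposited 2 gene tables, 1 per age, of which 1 line each was emptied for this work. Expression was taken as FPKM as deposited, from the layout of the tables and the naming of Cufflinks. Their p-values and q-values are printed as deposited by the authors.

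Labels of the tenotomy pools also hold the word uninjured; groups follow the operation named. Ratios were recomputed from FPKM with a pseudocount of 1 FPKM and no floor, over all 42 genes, and called at 2-fold. The same rule over all entries gives the background. No test was made, since each group is 1 pool. Depth was taken from the fit of low FPKM of single-transcript genes (GENCODE M21, at least 800 bp, 200 bp fragments) to whole fragments. Within 0.1 of a whole fragment lay 73.8% to 76.5% of those values. Fragments per gene used the shortest APPRIS principal transcript. A planned search for the KEN motif in proteins was not run. Copies were sought as shared 50-base stretches among GENCODE transcripts. The ratio and the 2-fold rule were tested on simulated data of genes with a mean of at least 5 FPKM. Most of the 42 genes were below that level in the adult sham, and the simulation does not cover such low levels. The genes and lists were chosen with earlier results of these data known. Named beside the 42 are up to 4 genes per list and age with the largest ratio past 2-fold; Ccnd2, neonatal Cdk6 and the marker genes were chosen after their values were seen. Of the marker symbols, Adgre1, Hba-a1, Hbb-bs and Ahsp were not matched in the tables, and some other marker genes are not reported here by name. The tools were pandas 2.3.3, NumPy 2.4.6 and SciPy 1.17.1 under Python 3.11.15, with plots from matplotlib 3.10.9.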

Additional observations from a re-analysis of the deposited data

Results flagged for a closer look

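Ect2 went in opposite directions at the 2 ages. Its log2 ratio was -0.20 at 7 days (5.95 FPKM after sham and 5.05 after tenotomy) and 1.42 at 6 months (1.32 and 5.22 FPKM), a difference of -1.62. With 1 pool per group the difference between ages was not tested. The neonatal value alone, at an FPKM ratio of 0.85 with a counting interval of 0.589 to 1.22, was not a detectable difference at this depth.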

How the results depend on the processing

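No paired analysis was possible because each group is 1 pool. All 42 genes kept the sign of their ratio at both ages under the scalings tried, which could have changed it. Pseudocounts and floors cannot change a sign, so they say nothing on this. The floor of 5 FPKM left 33 genes at 7 days and 23 at 6 months. As reported, 40 of 42 were higher after tenotomy at 7 days and 41 of 42 at 6 months. The counts and sizes moved. Genes at least 2-fold higher at 7 days numbered 2 as reported, 9 with a pseudocount of 0.1 FPKM, 0 with one of 5 FPKM, 11 with FPKM rescaled to the same sum, 24 at a limit of 1.5-fold, 0 by the authors' deposited call, and, in alternatives added after seeing the data, 12 with both a pseudocount of 0.1 FPKM and rescaling without muscle genes and small RNAs and 1 without the genes that share sequence. At 6 months they numbered 27, 2 with a pseudocount of 5 FPKM and 0 by the authors' deposited call. Of entries that reached 5 FPKM at 7 days, 5.55% were 2-fold higher as reported, and 6.74%, 2.71%, 8.04% and 7.34% under the pseudocounts of 0.1 and 5 FPKM, the same sum and the joint alternative.

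The median log2 ratio at 7 days (0.64) was 0.74 and 0.43 with pseudocounts of 0.1 and 5 FPKM, 0.80 rescaled to the same sum and 0.78 with the joint alternative. At 6 months (1.20) it was 1.70 and 0.57 with those pseudocounts, 1.42 with a floor of 5 FPKM, which leaves 23 genes, 1.36 rescaled without muscle genes and small RNAs, and 1.88 jointly. The difference between ages (-0.53) was -0.93 and -0.16 with those pseudocounts and -1.07 jointly. Between sham libraries (1.06) the median was 1.52 and 0.48 with those pseudocounts, 1.33 with a floor of 5 FPKM, 0.89 rescaled without muscle genes and small RNAs, 0.86 rescaled to a median log2 ratio of 0 and 1.31 jointly. Between tenotomy libraries (0.46) it was 0.30 with a pseudocount of 5 FPKM, 0.75 rescaled to the same sum, 0.16 without muscle genes and small RNAs, 0.25 at a median of 0 and 0.19 jointly.

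Rescaling to the same sum moved the median of all genes that reached 5 FPKM from 0.01 to 0.17 at 7 days, from 0.25 to 0.44 between sham libraries and from 0.25 to 0.55 between tenotomy libraries; without muscle genes and small RNAs it went from -0.03 to 0.13 at 6 months. The share of higher among called genes went from 35.0% to 47.7% at 7 days with the same sum and from 44.8% to 59.5% at 6 months without muscle genes and small RNAs. The other cell cycle lists moved too: further mitosis genes 2-fold higher in adults numbered 3 with a pseudocount of 5 FPKM and 44 at 1.5-fold, and DNA replication genes 2 and 26. With about 7.5 fragments for the median gene in the adult sham, depth limits the adult ratios most.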
